A study of Mus musculus with 5 samples.

Results

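The tumour suppressor p53 and 9 genes around it were described in mouse medulloblastoma, by every probe that the array's annotation assigns to their symbols. The set holds the p53 gene itself (Trp53), its inhibitors Mdm2 and Mdm4, and the p53-responsive genes Ccng1, Trp53inp1, Sesn2, Phlda3, Gadd45a, Plk2 and Tnfrsf10b. Of these 10 genes, 9 had a probe here, 26 probes in all out of 45281 on the array, and Trp53 was not analysed here. The 9 genes stand beside 19057 genes with a probe in the whole series, and all 9 were among the 10474 genes tested.

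The samples were 5 end-stage medulloblastomas of mice carrying SmoA2, an activated form of Smoothened that keeps hedgehog signalling on, which all 5 share. In 2 tumours (MyoD+/-;SmoA2, tumours 1 and 2) 1 copy of the myogenic factor gene Myod1 was lost, and in 3 (MyoD+/+;SmoA2, tumours 1 to 3) both copies were intact. RNA of each tumour was read on 1 Illumina mouse bead array, on which a probe is a short DNA oligonucleotide and its signal is a brightness. The labels give neither the promoter behind SmoA2, nor age or strain, nor how many mice gave the tumours. The p-values therefore measure only the spread between these samples. In a bulk tumour, fewer cells of a type and less RNA per cell cannot be told apart.

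As background, p53 is a transcription factor that is kept scarce in unstressed cells. Mdm2 marks it for destruction and Mdm4, a relative of Mdm2, holds its activating domain. When DNA damage or oncogene stress frees p53, it switches on genes that stop the cell cycle, genes that promote death, and Mdm2 itself, which closes a feedback loop. In hedgehog-driven mouse medulloblastoma, loss of p53 is known to speed tumour growth, so the output of this pathway is often read in such tumours.

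The DNA element that p53 binds is a pair of half-sites, each of 10 bases. The set was chosen around p53, so a count of half-sites in it is not independent of its naming. Promoters from RefSeq (assembly GRCm38.p6), spanning 250 bases before to 50 after a gene's start, were found for 8 of the 10 genes, and not for Trp53inp1 and Tnfrsf10b. An exact match to the p53 half-site consensus, which reads the same on both strands, was present in 4 of these 8 genes (Trp53, Mdm2, Ccng1 and Gadd45a). Of all genes with a promoter in the table, 9.55% held one, and of all 32851 promoters 8.36% did. The promoters of Mdm4, Sesn2, Phlda3 and Plk2 held none of these exact letters within the window. Windows of 3 genes are shown to let a reader see half-site matches in measured genes, with the match in capitals and the gene's own strand written 5′ to 3′. Sequence outside the promoter window was not searched.
Mdm2 (chr10:117710910-117710969, minus strand): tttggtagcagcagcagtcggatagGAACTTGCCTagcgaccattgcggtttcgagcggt
Ccng1 (chr11:40755437-40755506, minus strand): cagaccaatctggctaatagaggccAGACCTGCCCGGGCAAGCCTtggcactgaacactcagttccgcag
Gadd45a (chr6:67037413-67037472, minus strand): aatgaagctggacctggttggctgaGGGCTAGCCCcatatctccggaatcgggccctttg
In Ccng1 the capitals mark 2 half-sites directly side by side, with 1 mismatch in the pair. In Mdm2 and Gadd45a they mark a single half-site of 10 bases and not the paired element. A pair with at most 1 mismatch and at most 13 bases between the half-sites was present in 0.627% of all promoters. The matches begin 186, 195 and 40 bases before the start in Mdm2, Ccng1 and Gadd45a. A match is a run of letters and was not tested for binding in these tumours.

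No gene of the set passed the test between genotypes. Of the 9 genes tested with their brightest probe, 5 were higher and 4 lower in MyoD+/- tumours, where 49.6% of all genes were higher. Of the 9, 0 passed a limma adjusted p of 0.05, as did 0% of all 10474 genes. At an unadjusted p under 0.05 there was 1 of 9 (Tnfrsf10b, lower in MyoD+/-), where 5.26% of all genes reached it, 2.49% higher and 2.77% lower. The median log2 difference, MyoD+/- minus MyoD+/+, was 0.03 over the 9 genes and -0.0027 over all genes tested. For 7 of the 9 genes, all but Phlda3 and Tnfrsf10b, both ends of the 95% interval lay inside a 2-fold difference, as they did for 87.7% of all genes. All levels are log2 normalized signals, to which an offset was added that makes differences of dim genes smaller, and levels of different genes are not compared. Brighter and dimmer only tell probes of a gene apart by their signal.

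**Figure D1:**
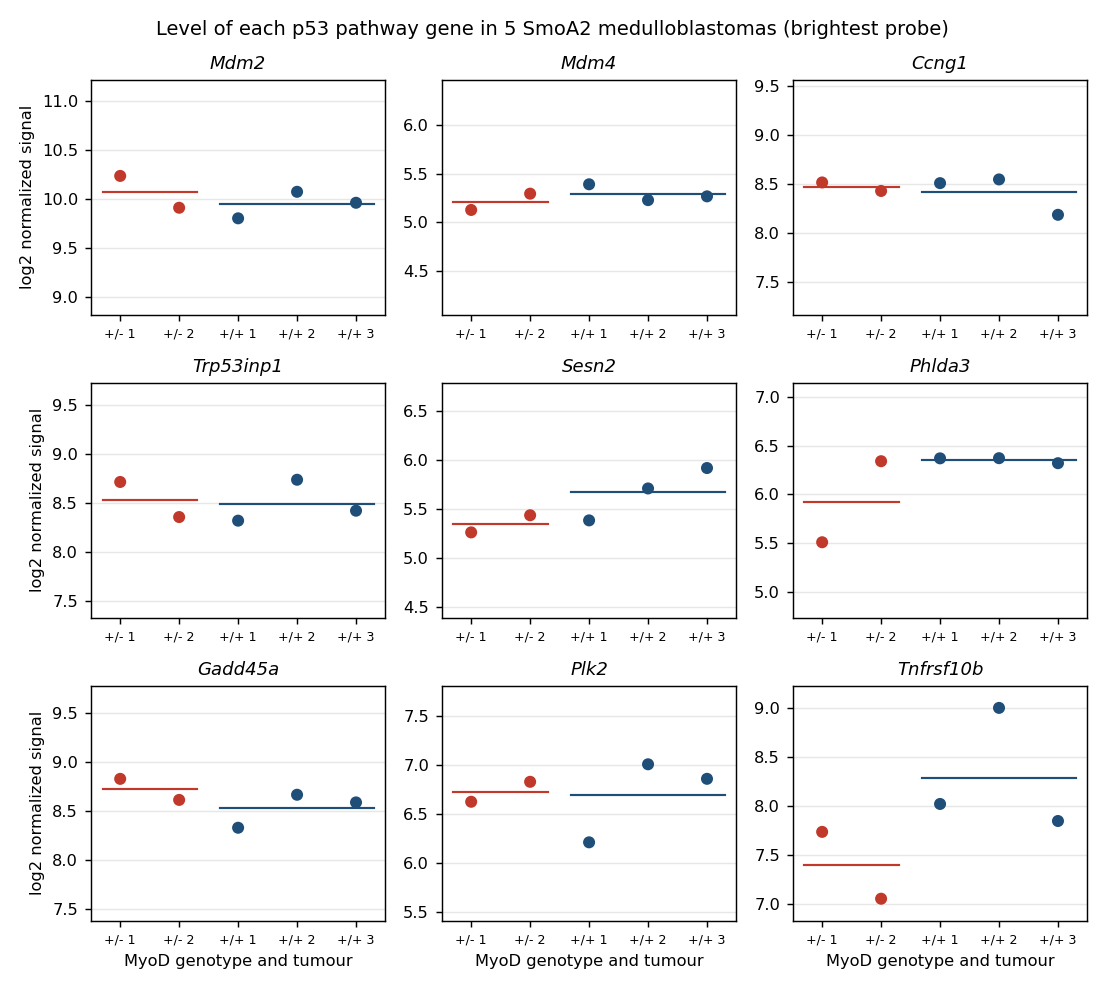
Each panel plots one gene's log2 normalized signal (vertical axis, each spanning the same number of log2 units) in the 2 MyoD+/- tumours (red, left) and the 3 MyoD+/+ tumours (blue, right), with group means as lines. The groups overlap in every gene except Tnfrsf10b, whose MyoD+/- values of 7.74 and 7.05 lie below the lowest MyoD+/+ value of 7.85.

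Neither inhibitor of p53 passed the test between genotypes. Mdm2, the ubiquitin ligase that is both inhibitor and target of p53, was at 10.23 and 9.91 in the MyoD+/- tumours, against 9.80, 10.07 and 9.96 in the MyoD+/+ tumours. The groups overlapped, and the mean log2 level differed by 0.13 ± 0.19 (SE, 2 and 3 tumours), with -0.31 to 0.56 as the 95% interval and 0.977 as the adjusted p from limma. Its next probe (ILMN_2850753) stood at 9.76 and 9.47 in MyoD+/- and at 9.49, 9.76 and 9.86 in MyoD+/+, a difference of -0.09 ± 0.20 of the opposite sign. The third Mdm2 probe was above background on 0 of the 5 arrays. Both bright Mdm2 probes thus put MyoD+/- tumour 1 above MyoD+/- tumour 2, but they differ in other places of the order. The highest was MyoD+/- tumour 1 on the brightest probe and MyoD+/+ tumour 3 on the next. The lowest was MyoD+/+ tumour 1 on the brightest probe and MyoD+/- tumour 2 on the next.

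Mdm4 was close to background throughout, where the offset makes a difference smaller. Its brightest probe was at 5.13 and 5.29 in MyoD+/- tumours, above background in 1 of 2, and at 5.39, 5.23 and 5.27 in MyoD+/+ tumours, above background in 2 of 3. The difference of -0.08 ± 0.17 (SE) had an interval from -0.47 to 0.30. A further Mdm4 probe (ILMN_1252838), detected in 1 tumour of each genotype, differed by 0.12 ± 0.24, and the remaining 3 Mdm4 probes were detected on 0 of 5 arrays. A probe at background does not show that a transcript is absent, since detection also rests on the probe.

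Among the p53-responsive genes, Ccng1 and Trp53inp1 differed little between the genotype means, and Sesn2 by more, and none passed. Ccng1 encodes cyclin G1, a p53 target that works with a phosphatase on Mdm2. It stood at 8.52 and 8.43 in MyoD+/- tumours, against 8.51, 8.55 and 8.19 in MyoD+/+ tumours. Only MyoD+/+ tumour 3 was set off, below the other 4, and the difference was 0.06 ± 0.18 (SE; interval -0.37 to 0.49). A dimmer Ccng1 probe (ILMN_2710229) gave -0.08 ± 0.23. The dimmest Ccng1 probe (ILMN_2702233) was above background in both MyoD+/- tumours and in 0 of the 3 MyoD+/+ tumours. Its levels were near the detection cutoff, at 5.41 and 5.30 in MyoD+/-, against 5.02, 5.29 and 5.09 in MyoD+/+. A bound on the means put it at least 1.08-fold higher in MyoD+/- (limma adjusted p = 0.972 over all probes). This bound divides the mean of the brighter genotype by a floor for the dimmer one. The floor is averaged from its arrays, each at the dimmest level called detected there or at the probe's own, whichever was larger.

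Trp53inp1, a nuclear protein that promotes p53-dependent arrest and death, was at 8.71 and 8.35 in MyoD+/- tumours, and at 8.32, 8.74 and 8.42 in MyoD+/+ tumours. MyoD+/- tumour 1 and MyoD+/+ tumour 2 were the high pair, so the spread cut across the genotypes, with a difference of 0.04 ± 0.21 (SE; interval -0.44 to 0.53). Its dimmer probe (ILMN_2971479) differed by 0.10 ± 0.23 and did not repeat the high pair. That probe was at 6.39 and 5.88 in MyoD+/-, and at 6.27, 6.04 and 5.79 in MyoD+/+. Sesn2, an antioxidant protein that restrains the growth kinase mTORC1, stood at 5.26 and 5.44 in MyoD+/-, against 5.39, 5.71 and 5.92 in MyoD+/+. The groups overlapped by the lowest MyoD+/+ tumour only, and the difference was -0.32 ± 0.21 (SE; interval -0.81 to 0.16; limma adjusted p = 0.957). Another Sesn2 probe (ILMN_1229465), detected in 1 tumour of each genotype, differed by -0.10 ± 0.27.

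Phlda3, a p53-induced repressor of the survival kinase Akt, had an even level in 4 tumours and a low one in the fifth. It was at 5.51 and 6.34 in the MyoD+/- tumours, against 6.37, 6.37 and 6.32 in the MyoD+/+ tumours. The SD was 0.59 within MyoD+/- (n = 2) and 0.03 within MyoD+/+ (n = 3), since MyoD+/- tumour 1 alone was low. The difference was -0.43 ± 0.25 (SE; limma adjusted p = 0.957), and leaving out MyoD+/- tumour 1 gave -0.01, while leaving out MyoD+/- tumour 2 gave -0.84. The dimmer probe (ILMN_2628567) did not repeat this order. It was at 4.95 and 4.93 in MyoD+/-, not above background in either, and at 5.48, 5.47 and 5.0 in MyoD+/+, above background in 2 of 3. Its bound was at least 1.10-fold lower in MyoD+/- tumours, with 0.963 as its limma adjusted p over all probes.

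Gadd45a, which binds Cdk1 and PCNA and takes part in arrest at the G2 to M transition, had a pair of probes whose differences were unequal in size. Its brighter probe stood at 8.83 and 8.61 in MyoD+/- tumours, against 8.33, 8.67 and 8.59 in MyoD+/+ tumours, and the groups overlapped. The difference was 0.19 ± 0.18 (SE; interval -0.24 to 0.63; limma adjusted p = 0.957). The dimmer Gadd45a probe (ILMN_2947568), detected on all 5 arrays, stood at 7.23 and 7.27 in MyoD+/-, against 6.37, 6.82 and 6.59 in MyoD+/+. There both MyoD+/- tumours lay above all 3 MyoD+/+ tumours, and the difference was 0.65 ± 0.20 (SE), a fold of 1.57, with an interval from 0.20 to 1.11. Over the 18675 probes tested its limma adjusted p was 0.947. Before normalization that probe's signals were 277.5 and 287.7 in MyoD+/-, against 206.5, 199.3 and 225.0 in MyoD+/+.

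Plk2, a polo-like kinase induced by p53 and also by activity in neurons, had a single probe. It was at 6.63 and 6.83 in MyoD+/- tumours, and at 6.21, 7.01 and 6.86 in MyoD+/+ tumours. The MyoD+/+ tumours held both the highest and the lowest value, and the difference was 0.03 ± 0.26 (SE; interval -0.58 to 0.65). Without MyoD+/+ tumour 1, the lowest, it was -0.21.

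Tnfrsf10b, the death receptor that in mouse binds the ligand TRAIL, showed the largest genotype difference among the 9 genes. It stood at 7.74 and 7.05 in the MyoD+/- tumours, against 8.02, 9.0 and 7.85 in the MyoD+/+ tumours. The groups did not overlap, as was the case for 1 of the 9 genes and for 20.9% of all genes, with 10.9% of all genes lower in MyoD+/- in this way. Both groups were nonetheless wide, with means of 7.39 ± 0.48 (SD, n = 2) in MyoD+/- and 8.29 ± 0.62 (SD, n = 3) in MyoD+/+. The difference was -0.90 ± 0.38 (SE), a fold of 1.86 lower in MyoD+/-, with an interval from -1.78 to -0.02 and a limma adjusted p of 0.943. Before normalization the signals were 346.2 and 265.3 in MyoD+/-, against 390.2, 498.6 and 367.5 in MyoD+/+.

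The size of the Tnfrsf10b difference rests on a few tumours. It was -1.24 without MyoD+/- tumour 1, -0.55 without MyoD+/- tumour 2, the lowest, and -0.54 without MyoD+/+ tumour 2, the highest. Its unadjusted p was 0.0471 with all tumours, 0.0367 and 0.277 without MyoD+/- tumours 1 and 2, and 0.0588, 0.0805 and 0.0214 without MyoD+/+ tumours 1, 2 and 3. The other 4 Tnfrsf10b probes were above background on 0 of the 5 arrays, so 1 probe carries the gene here. Among all genes tested, the SD of Tnfrsf10b over the 5 tumours (0.70) was at the 98.5th percentile. Phlda3 was at the 84.4th, Plk2 at the 72.6th and Sesn2 at the 62.6th percentile of the same ranking. The other 5 genes lay between the 6.54th (Mdm4, close to background) and the 40.7th (Trp53inp1). That ranking used the brightest probe of each gene, and other probes of these 5 genes did not all rank low. Among all probes tested, the dimmer Gadd45a probe was at the 86.1st percentile and ILMN_1252838 of Mdm4 at the 62.7th. ILMN_2971479 of Trp53inp1 was at the 55.7th and ILMN_2710229 of Ccng1 at the 50.5th. ILMN_2850753 of Mdm2 was at the 29.3rd and ILMN_2702233 of Ccng1 at the 23.1st.

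**Figure D2:**
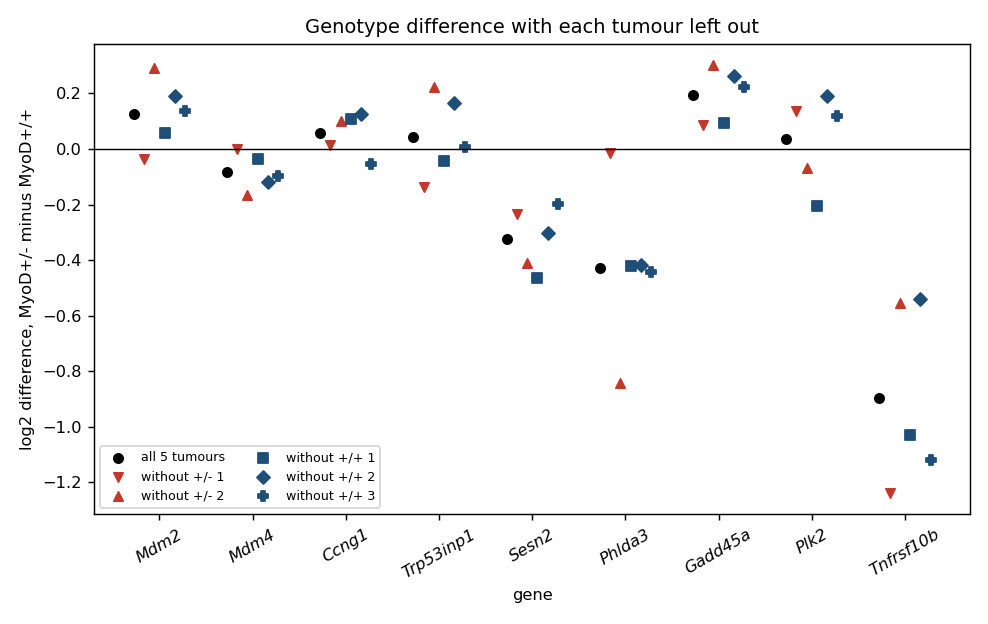
The log2 difference, MyoD+/- minus MyoD+/+ (vertical axis), is plotted for each gene with all 5 tumours (black) and with each tumour left out (red for MyoD+/-, blue for MyoD+/+). Sesn2, Phlda3 and Tnfrsf10b stay below 0 in every case and Gadd45a above 0, Mdm4 reaches -0.00064, and Mdm2, Ccng1, Trp53inp1 and Plk2 cross 0.

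Over all probes of the set, 17 of 26 passed the detection filter, and 7 of the 9 genes had more than 1 such probe. Of the 17, 9 were higher and 8 lower in MyoD+/-, and 0 passed over all probes in limma, as did 0% of the 18675 probes. At an unadjusted p under 0.05 there were 2 (the dimmer Gadd45a probe and the Tnfrsf10b probe), where 5.20% of all probes reached it. The groups did not overlap in 4 of the 17, against 20.7% of all probes. These were the dimmest Ccng1 and the dimmer Gadd45a probe, higher in MyoD+/-, and the dimmer Phlda3 and the Tnfrsf10b probe, lower there. The Ccng1 and Phlda3 probes passed the detection filter only through the genotype where they were higher, so their separation does not count as support. Probes of 1 gene had opposite signs in Mdm2, Mdm4 and Ccng1, where the differences reached at most 0.22 in size. In Trp53inp1, Sesn2, Phlda3 and Gadd45a the signs matched.

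**Figure D3:**
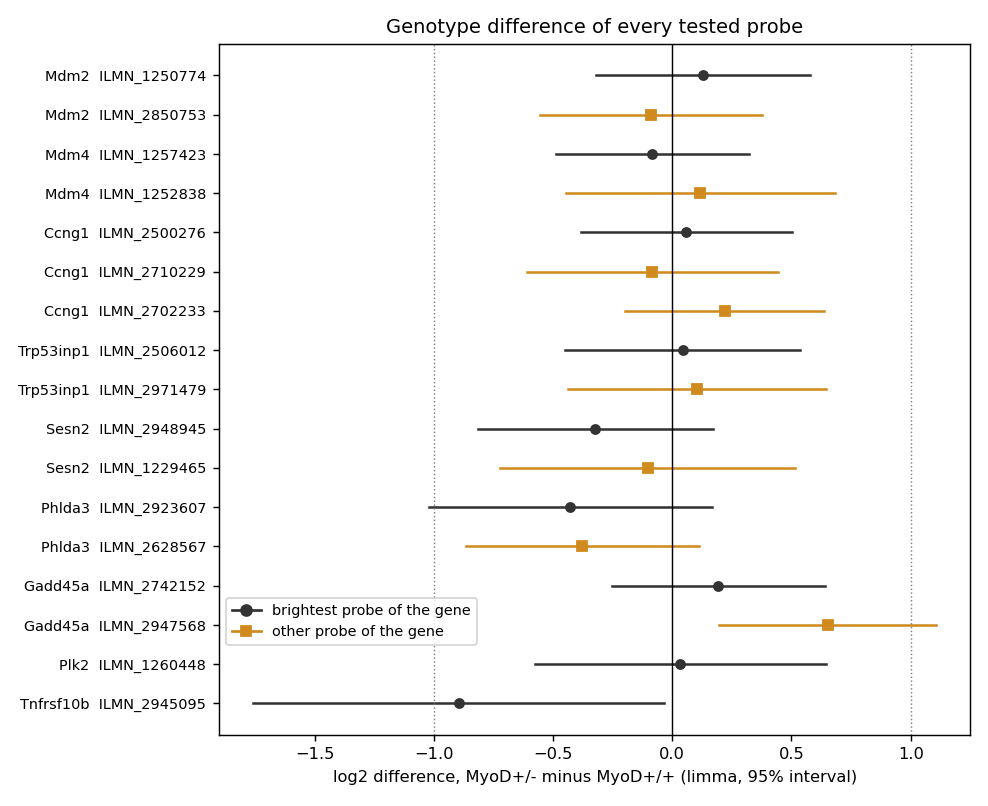
Points give the log2 difference, MyoD+/- minus MyoD+/+ (horizontal axis), of each of the 17 tested probes, with 95% limma intervals, for the brightest probe of a gene (black circles) and its other probes (orange squares). Dotted lines mark a 2-fold difference, and only the intervals of the dimmer Gadd45a probe (0.20 to 1.11) and the Tnfrsf10b probe (-1.76 to -0.03) leave out 0.

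Individual tumours stood apart in ways that crossed the genotypes. By the brightest probe of each gene, MyoD+/+ tumour 2 held the highest level of 5 of the 9 genes (Ccng1, Trp53inp1, Phlda3, Plk2 and Tnfrsf10b). For Phlda3 this was by a margin that vanishes at 2 decimals. No other tested probe of Ccng1, Trp53inp1 or Phlda3 was highest there, and Plk2 and Tnfrsf10b had no other tested probe. MyoD+/+ tumour 1 held the lowest level of 4 genes by the same probes (Mdm2, Trp53inp1, Gadd45a and Plk2). The other tested probe repeated this for Gadd45a, but not for Mdm2 or Trp53inp1. MyoD+/- tumour 1 was highest in 2 genes (Mdm2 and Gadd45a) and lowest in 3 (Mdm4, Sesn2 and Phlda3), again by the brightest probes. The other tested probes of these genes did not repeat that place. MyoD+/+ tumour 2 also had the lowest median signal, 133.6, where the other 4 lay between 145.2 and 148.1, and its part in these levels was not tested. How many of all genes were highest or lowest in each tumour was not counted. The counts above are therefore not read as particular to the set.

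Of 82 further genes of the pathway, grouped as regulators, arrest targets, apoptosis targets, and repair and metabolism targets, a probe was present for 72, and 57 were detected often enough to be tested. Among the 57, 29 were higher and 28 lower in MyoD+/-, with a median log2 difference of 0.03, and 0 passed over all genes in limma. At an unadjusted p under 0.05 there were 3 of 57 (Ppp1r13b, Ppp1r13l and Xpc), a share near the 5.26% of all genes. Of these, Ppp1r13l passed the detection filter only through the MyoD+/+ tumours. The groups did not overlap in 9 of the 57, against 20.9% of all genes. Bax, a main p53 target for death, was not analysed here.

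Among 23 tested regulators, 11 were higher and 12 lower (median -0.06), and 2 reached an unadjusted p under 0.05, which 5.26% of all genes did. The ASPP protein gene Ppp1r13b, whose product steers p53 towards death genes, stood at 8.62 and 8.66 in MyoD+/-, against 9.14, 8.92 and 9.54 in MyoD+/+. The groups did not overlap and the difference was -0.56 ± 0.22 (SE; limma adjusted p = 0.913). Its inhibitory relative Ppp1r13l was above background in neither MyoD+/- tumour and in 2 of 3 MyoD+/+ tumours. It thus passed the detection filter only through the MyoD+/+ tumours, where it was higher. The bound on the means put it at least 1.10-fold lower in MyoD+/- tumours, with an adjusted p of 0.911 in limma. The ubiquitin ligase gene Ube4b, a partner of Mdm2, differed by -0.35 ± 0.17. Ppm1d, the phosphatase that switches p53 signalling off, differed by 0.06 ± 0.17. Cdkn2a, which encodes the Mdm2 inhibitor p19Arf and the Cdk inhibitor p16Ink4a, was close to background. Its brightest probe, above background in 1 of 2 MyoD+/- and 3 of 3 MyoD+/+ tumours, differed by -0.40 ± 0.29. Another, above background in 2 of 2 and 2 of 3, differed by 0.52 ± 0.30.

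Among 13 tested arrest targets, 8 were higher and 5 lower (median 0.08), and 0 reached an unadjusted p under 0.05 in limma. Cdkn1a, the p21 inhibitor of cyclin-dependent kinases and the chief arrest target of p53, stood at 9.96 and 10.60 in MyoD+/-, against 10.21, 8.39 and 10.90 in MyoD+/+. MyoD+/+ tumour 2 was far below the rest, and the difference was 0.45 ± 0.66 (SE; interval -1.11 to 2.00), or -0.27 without that tumour. All 3 Cdkn1a probes were lowest in MyoD+/+ tumour 2, at 7.53 and 6.49 on the dimmer ones. The SD of Cdkn1a was at the 99.5th percentile of all genes. Zmat3, an RNA-binding p53 target, differed by -0.10 ± 0.16, and Gadd45g, Cdkn1c and Sesn1 by 0.32 ± 0.19, -0.31 ± 0.19 and -0.25 ± 0.17.

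In MyoD+/+ tumour 2, 8 of the 9 genes of the set and 5 of the 13 arrest targets stood above their own mean of the 5 tumours. Each gene was read here from its brightest probe only. This tally was made after the values were seen. The share of all genes above their mean in that tumour was not counted, so the tally is not read as particular to the set. Tnfrsf10b there was 1.07 above its mean, and Cdkn1a 1.63 below. Gadd45b and Rprm, chosen after their values were seen, were also low there. Gadd45b, a stress-induced relative of Gadd45a, was at 7.72 and 7.79 in MyoD+/-, against 7.38, 6.35 and 8.60 in MyoD+/+. Rprm, an arrest gene at the G2 stage, was at 8.39 and 9.05 in MyoD+/-, against 8.98, 7.91 and 9.02 in MyoD+/+.

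**Figure D4:**
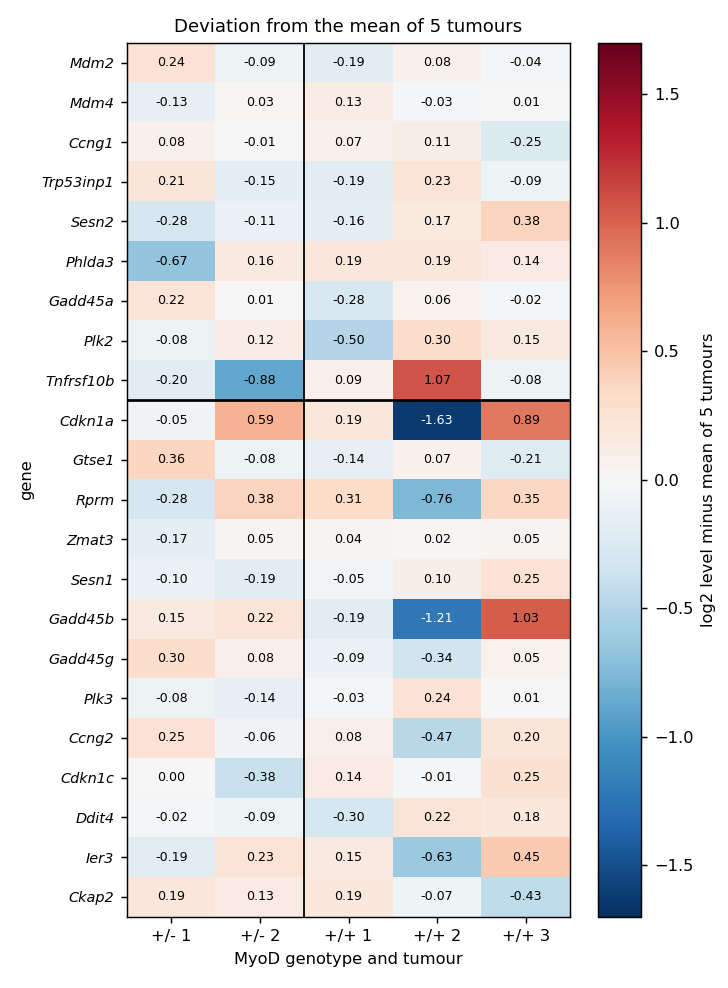
Colours and numbers give each gene's log2 level minus its mean over the 5 tumours, for the 9 genes of the set (above the black line) and 13 arrest targets (below), with MyoD+/- tumours left of MyoD+/+. In the MyoD+/+ tumour 2 column Tnfrsf10b is at 1.07 and Cdkn1a at -1.63.

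Among 11 tested apoptosis targets, 5 were higher and 6 lower (median -0.01), and 0 reached an unadjusted p under 0.05 in limma, with Trp53i11 at 0.35 ± 0.22, Trp53i13 at -0.21 ± 0.18 and the caspase gene Casp6 at 0.22 ± 0.19. Among 10 repair and metabolism targets, 5 were higher and 5 lower (median 0.06). Xpc, which recognises damaged DNA in nucleotide excision repair, stood at 7.72 and 7.40 in MyoD+/-, against 7.09, 6.92 and 7.09 in MyoD+/+. Both MyoD+/- tumours lay above the MyoD+/+ tumours, and the difference was 0.53 ± 0.18 (SE; limma adjusted p = 0.911). The ribonucleotide reductase subunit gene Rrm2b, a p53 target that supplies nucleotides for repair, differed by 0.43 ± 0.21, and the damage-tolerant polymerase gene Polh by 0.30 ± 0.19.

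Across the series, 37.0% to 39.9% of probes were detected on each array, and Pearson's r between arrays over genes lay between 0.965 and 0.984. Myod1 stood at 6.31 and 6.67 in MyoD+/- and at 7.25, 6.38 and 7.08 in MyoD+/+, a difference of -0.41 ± 0.28 that did not pass, so it does not check the labels. Of 20 granule neuron precursor and hedgehog markers, 12 were tested, among them Zic1 and Ccnd1 on all 5 arrays, while Atoh1, Gli1, Mycn, Pax6 and Boc were detected on 0. Markers of other cells were present too, and 49.6% of all genes were higher in MyoD+/-. All 9 tested oligodendrocyte markers were lower there, with summed linear levels of 3153 to 3559 in MyoD+/- and 5755 to 7726 in MyoD+/+, and Ermn was on 0 arrays. Of the 9, Opalin passed the detection filter only through the MyoD+/+ tumours, so its difference does not count as support. Mbp weighed most in the sums, at 10.70 and 10.84 in MyoD+/- against 12.16, 12.18 and 11.82 in MyoD+/+ (log2). Astrocyte markers were lower in MyoD+/- for 8 of 10 and endothelial and mural markers for 9 of 10, while proliferation genes were higher for 11 of 12 and microglia markers for 7 of 10. Their median log2 differences were -0.13, -0.16, 0.14 and 0.19, and the summed levels of each list overlapped between the genotypes. For proliferation genes the sums were 10873 and 9055 in MyoD+/-, against 9195, 9836 and 8426 in MyoD+/+. The part of all these marker lists in the Tnfrsf10b and Gadd45a values was not tested. Red blood cell markers, of which 3 were tested, summed to 807 and 4180 in MyoD+/- tumours 1 and 2. In MyoD+/+ tumours 1 to 3 they summed to 643, 3604 and 1771. Their part in the levels of single tumours was not tested. The 6 lymphocyte markers with a probe were each detected on 0 arrays.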

How the data were processed

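Per the file headers, the authors deposited a non-normalized signal intensity and a detection p-value for 45281 probes on 5 arrays. The authors also deposited processed log2 values, which kept the rank order of the signals on each array (rank correlation 1). Once sorted, these values lay within 0.0036 of the log2 mean of the sorted signals on every array, as quantile normalization gives. Scanner and software are not given in the sources used here. From the labels' genotype, 2 MyoD+/- and 3 MyoD+/+ tumours were compared.

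Values were recomputed with limma 3.58.1 (R 4.3.3) by neqc: normexp background correction with negative controls inferred from detection p-values, an offset of 16, quantile normalization and log2. The 18675 probes kept were those detected (p under 0.05) on 2 or more arrays. Platform symbols, checked through Entrez identifiers against RefSeq, named 34885 probes singly and 18 with several genes, and 10378 were unnamed. A gene was read from its brightest kept probe (10474 genes), and all kept probes were also fitted singly. The tests were lmFit and eBayes, two-sided, with Benjamini-Hochberg adjustment over all genes or all probes and a threshold of 0.05, checked on simulated data. Array number limits the precision.

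Members, lists and the naming rule were chosen with earlier results of these data known. Named are all members, the 3 genes of smallest p in each other list, and Cdkn1a, Cdkn2a, Bax, Ppm1d and Zmat3. Alternatives covered background correction, scaling, offset, the authors' values, filters, probe averaging, variance model, array weights, a block on title letters and leaving out each tumour.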

Additional observations from a re-analysis of the deposited data

How the results depend on the processing

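The count of 0 members past the adjusted threshold in limma held under all 15 alternatives. Their count at an unadjusted p under 0.05 was 1 (Tnfrsf10b), but 0 without background correction, with the authors' processed values and with no detection filter. It was 2 with the mean of a gene's probes (adding Gadd45a) and with the title-letter block (adding Sesn2), and 0 to 1 with a tumour left out. It was 0 without MyoD+/+ tumour 1 or 2, and without MyoD+/- tumour 2 the single gene was Phlda3. Tnfrsf10b ranged from -1.24 to -0.54 and the dimmer Gadd45a probe from 0.32 to 0.79, each with 1 sign. Of the other 57 pathway genes, 3 reached that p, 6 with the title-letter block and 0 to 4 with a tumour left out (0 without MyoD+/- tumour 1).

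Over all genes the counts were 551 at that p, 998 with no filter (19057 genes tested), 879 with the title-letter block and 298 to 681 with a tumour left out (298 without MyoD+/- tumour 1). Past the adjusted threshold they were 0, 2 with the variance trend (Gdpd3 and Mbp) and 0 to 1 with a tumour left out (Gdpd3 without MyoD+/+ tumour 2, Zdbf2 without MyoD+/+ tumour 3). The block takes MyoD+/+ tumour 1, the only one with its letters, out of the difference. The block left Tnfrsf10b at -1.03 ± 0.20 (SE; unadjusted p 0.0025, limma adjusted p 0.588), with very few arrays to estimate the spread. Leaving MyoD+/+ tumour 1 out without a block gave the same -1.03, with an SE of 0.44 and an unadjusted limma p of 0.0588. What the letters mean is not stated, and the labels give no replicate numbers.

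Median scaling moved the median of all genes to 0.14 and the share higher in MyoD+/- to 70.7%, against 49.6%. The members stayed at 5 higher and 4 lower, and the other pathway genes were at 40 and 17. Signs turned for Zmat3 (0.038), ILMN_2710229 of Ccng1 (0.017) and ILMN_2850753 of Mdm2 (0.094) with median scaling, for Mdm4 (0.017) and Cdkn2a (0.059) with the mean of probes, and for Trp53inp1 (-0.044), Plk2 (-0.21) and ILMN_2710229 (0.0013) with the block. With a tumour left out, ranges that cross 0 were -0.035 to 0.29 (Mdm2), -0.055 to 0.13 (Ccng1), -0.14 to 0.22 (Trp53inp1), -0.21 to 0.19 (Plk2), -0.27 to 0.99 (Cdkn1a), -0.82 to 0.017 (Cdkn2a), -0.00080 to 0.14 (Ppm1d) and -0.20 to 0.0096 (Zmat3). For other probes they were -0.47 to 0.27 (Sesn2), -0.095 to 0.25 (Mdm4), -0.37 to 0.20 (ILMN_2710229), -0.24 to 0.055 (ILMN_2850753) and -0.15 to 0.36 (Trp53inp1). The cause of these turns was not tested. Mdm4, Sesn2, Cdkn2a, Ppp1r13l, Polh and the dimmest tested probes of Ccng1, Mdm4, Sesn2 and Phlda3 were not tested under the stricter filter. Few arrays and dim signals, as for Mdm4 and Sesn2, limit what could be seen.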
